A study of Homo sapiens with 6 samples.

Results

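The genes described here encode integrins and the proteins that tie them to the actin cytoskeleton at focal adhesions. They are 35 named genes, of 32357 in the deposited count table, and each was found in it by its symbol. They comprise 13 integrin alpha subunits, 7 beta subunits, 4 talins and kindlins, 3 tensins, 5 genes that link integrins to actin and 3 signalling genes. RNA was measured in 786-O and A-498, both human clear cell renal cell carcinoma lines, which are established cell lines without a working VHL tumour suppressor. Each line carried a non-targeting short hairpin as control, hairpin 1 against ZNF395 (shZNF395-1) or hairpin 3 against ZNF395 (shZNF395-3). The hairpins were delivered stably by retrovirus packaged in HEK293T cells, and every group, controls included, was selected with puromycin. This gave 6 libraries of total RNA, 1 per line and construct. No repeat culture of any construct was measured within a line, so each p-value rests on the spread that a model leaves between these libraries.

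An integrin is a pair of 1 alpha and 1 beta subunit that spans the membrane and binds matrix proteins outside the cell. The alpha subunit largely sets the ligand (collagen, laminin, or proteins with the RGD motif such as fibronectin and vitronectin). Inside the cell, talins and kindlins bind the beta tail and switch the receptor on. Vinculin, tensins and the complex of ILK, PINCH (LIMS1) and parvin then connect it to actin, and FAK (PTK2), paxillin and p130Cas (BCAR1) pass the signal on. In kidney tubules integrins hold the epithelium on its basement membrane.

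Library totals ran from 77534125 to 99147218 counts, and the 35 genes took between 0.533 and 0.816% of them. ZNF395 was at 14.0 to 25.6% of its line's control in the 4 knockdown libraries. Markers of the lines were present, with the renal transcription factor PAX8 at 157 to 256 CPM (reads of a gene relative to library size, scaled by TMM) and PAX2 at 17.7 to 26.6 CPM. CA9, a marker of clear cell tumours, was near 0 in 786-O (0 to 0.0126 CPM) and low in A-498 (0.399 to 1.68 CPM). Of 13 leukocyte markers 11 were in the table, and 9 of these stayed under 1 CPM in every library (summed level 1.61 to 5.73 CPM). Of 8 endothelial markers 7 were in the table and 5 stayed under 1 CPM (sum 1.20 to 4.37 CPM). Of 8 fibroblast markers 5 stayed under 1 CPM, with sums of 7.11 to 9.64 CPM in 786-O and 19.7 to 41.6 CPM in A-498. Of 6 markers associated with HEK293, the parent of the packaging cells, 5 were in the table, with sums of 227 to 283 CPM in 786-O and 390 to 463 CPM in A-498, of which the neurofilament gene NEFL made up most.

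Most of the changes were with hairpin 3, with which several integrin subunits and adhesion adaptors were lower in both lines. Of the 35 genes, 33 passed the expression filter. The other two were ITGA8, with 3 reads in 1 library, and TNS4, with at most 5 reads in a library. Against the control, 8 of the 33 (24.2%) changed with hairpin 3 in edgeR's quasi-likelihood test over all genes (adjusted p under 0.05), compared with 6.71% of the 20144 genes tested. ITGAV, ITGB1, ITGB3, ITGA4, ITGAX, TNS1 and TLN2 fell, 7 genes where the background of falls was 4.16%. ITGA2 rose, 1 gene where the background of rises was 2.55%. The median log2 fold change of the 33 was -0.19, against -0.01 over all genes tested. With hairpin 1, 1 of the 33 changed, ITGA6, which fell (background 0.149% in either direction, 0.0397% up and 0.109% down), and the median was 0.08 against 0.00 over all genes tested. In bulk RNA, fewer cells with a transcript and less transcript per cell cannot be told apart. The hairpin comparisons share the same control libraries, 1 per line.

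**Figure D1:**
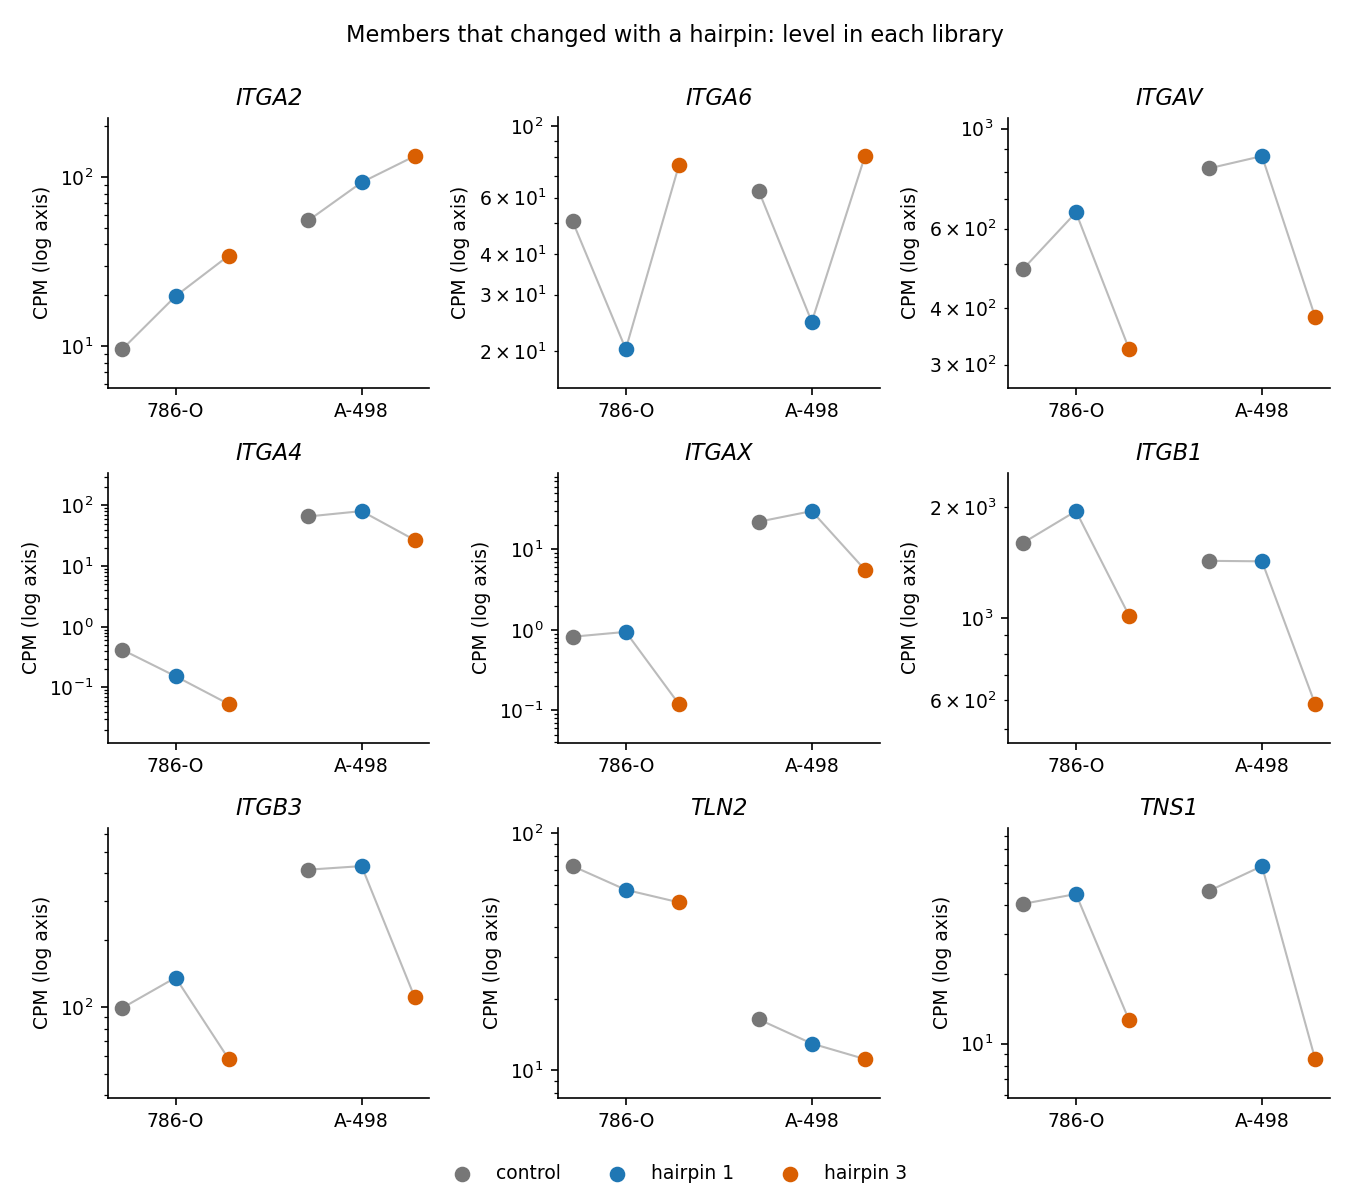
Level of the 9 members that changed with a hairpin, in CPM on a log axis that differs between panels; each point is 1 library, gray lines join the libraries of a line. In both lines the hairpin 3 library is the lowest of the 3 for ITGAV, ITGA4, ITGAX, ITGB1, ITGB3, TLN2 and TNS1 and the highest for ITGA2 and ITGA6.

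RefSeq promoters were matched for 24 of the 35 genes, and those of ITGA2, ITGA6, ITGAV and ITGB1 are shown because these genes moved in different ways with the hairpins. Each is the stretch from 250 to 31 bases before the gene's start, on the gene's own strand, 5′ to 3′, in GRCh38.p14. Capitals mark matches, on either strand, to any of the motifs searched, here the GC box GGGCGG and CATTCC, the core of TEAD sites.
ITGA2 (chr5:52989102-52989321, plus strand): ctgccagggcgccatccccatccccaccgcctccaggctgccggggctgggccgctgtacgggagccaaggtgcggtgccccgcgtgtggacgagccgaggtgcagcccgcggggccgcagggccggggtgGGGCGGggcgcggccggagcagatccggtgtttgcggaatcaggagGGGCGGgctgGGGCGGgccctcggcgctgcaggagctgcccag
ITGA6 (chr2:172427086-172427305, plus strand): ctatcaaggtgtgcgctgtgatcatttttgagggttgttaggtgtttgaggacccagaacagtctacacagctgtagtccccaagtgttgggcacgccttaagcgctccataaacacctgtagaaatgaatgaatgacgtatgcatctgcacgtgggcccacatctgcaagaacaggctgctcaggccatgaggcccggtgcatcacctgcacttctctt
ITGAV (chr2:186589806-186590025, plus strand): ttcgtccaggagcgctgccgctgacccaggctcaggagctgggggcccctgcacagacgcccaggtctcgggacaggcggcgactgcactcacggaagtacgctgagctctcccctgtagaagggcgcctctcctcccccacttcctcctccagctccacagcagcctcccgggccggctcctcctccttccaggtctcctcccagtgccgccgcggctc
ITGB1 (chr10:32958261-32958480, minus strand): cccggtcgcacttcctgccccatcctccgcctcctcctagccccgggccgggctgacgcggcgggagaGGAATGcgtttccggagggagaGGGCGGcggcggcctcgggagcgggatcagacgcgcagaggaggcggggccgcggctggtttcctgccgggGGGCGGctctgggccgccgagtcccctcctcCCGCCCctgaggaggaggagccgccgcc
The ITGA2 stretch held 3 GC boxes and that of ITGB1 held 3 GC boxes and 1 CATTCC, while those of ITGA6 and ITGAV held neither. Of the 24 members, 11 had a GC box and 4 a CATTCC, and among 27305 promoter stretches of the same length 38.6% and 10.7% did. The letters TGACTCA (AP-1), CCAAT and TATAAA were also searched on both strands. They were found in 1, 3 and 0 of the 24 members, and in 3.76, 30.7 and 8.31% of all stretches. GC made up 78.2% of the ITGA2 stretch, 77.3% of ITGB1, 70.0% of ITGAV and 51.4% of ITGA6. ITGA2 (up with hairpin 3) and ITGB1 (down with hairpin 3) had the same number of GC boxes. Any part of these motifs in the changes was not tested.

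Among the beta subunits, ITGB1, the shared partner of most alpha subunits, fell with hairpin 3. The 786-O control library held 1601 CPM, against 1954 for hairpin 1 and 1016 for hairpin 3. For A-498 these values were 1432, 1427 and 584 CPM. The hairpin 3 libraries were thus at 63.5 and 40.8% of their controls, while those of hairpin 1 were at 122 and 99.7%. Against the control ITGB1 fell by 0.97 on the log2 scale with hairpin 3 (SE 0.18, edgeR adjusted p = 0.0284). It was also lower with hairpin 3 than with hairpin 1 (-1.11, SE 0.18, adjusted p = 0.0182).

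ITGB3, which pairs with ITGAV to form the vitronectin receptor, moved the same way. Values for 786-O were 99.1 (control), 136 (hairpin 1) and 58.3 CPM (hairpin 3). The A-498 libraries gave 415, 430 and 110 CPM in the same order, so that hairpin 3 left 26.6% of the A-498 control. With hairpin 3 it fell by 1.33 against the control (SE 0.26, edgeR adjusted p = 0.0324) and by 1.56 against hairpin 1 (SE 0.26, adjusted p = 0.0199). In the annotation used here another gene on the same strand shares 51.6% of the exon bases of ITGB3 (20.6% for ITGB6), and how the authors' counting split such reads is unknown.

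ITGAV, the alpha subunit of the RGD receptors with ITGB1, ITGB3, ITGB5, ITGB6 or ITGB8, fell alongside. It was at 488, 652 and 325 CPM in 786-O and 816, 869 and 383 CPM in A-498, in the same order of constructs. In both lines hairpin 3 gave the lowest and hairpin 1 the highest of the 3 values. The fold against the control was -0.84 on the log2 scale (SE 0.16, edgeR adjusted p = 0.0297) and against hairpin 1 it was -1.09 (SE 0.16, adjusted p = 0.0141). The calls of these subunits against the control depended on single libraries. Without the A-498 control none was called (adjusted p = 0.191 for ITGB1, 0.228 for ITGAV and 0.131 for ITGB3). Without the 786-O control ITGB1 (0.0595) and ITGAV (0.0734) lost the call, and without the 786-O hairpin 1 library ITGB3 did (0.0541). Leaving out the hairpin 3 library of A-498 kept the ITGB3 call, with a fold of -0.88. Against hairpin 1 each of these 3 calls was lost without the 786-O hairpin 1 library (0.0810 for ITGB1, 0.0741 for ITGAV and 0.0808 for ITGB3) and kept without any other.

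The other beta subunits did not pass the test with either hairpin. ITGB6, the epithelial partner of ITGAV that activates latent TGF-beta, was at 24.0, 15.9 and 7.96 CPM in 786-O and 25.2, 33.9 and 17.4 CPM in A-498. Its log2 fold change with hairpin 3 was -1.09 (SE 0.27, edgeR adjusted p = 0.0622), just outside the threshold, and DESeq2 called it. ITGB5, another vitronectin-binding partner of ITGAV, had -0.31 with hairpin 3 (SE 0.14, adjusted p = 0.234) and ITGB8 had 0.30 (SE 0.12, adjusted p = 0.179). ITGB2, the beta subunit of leukocyte integrins, was low, with 1.51, 2.09 and 1.92 CPM in 786-O and 4.13, 11.9 and 3.92 CPM in A-498. The A-498 hairpin 1 library stood above the rest, and the fold with hairpin 1 was 1.08 (SE 0.35, adjusted p = 0.349). ITGB4, the laminin-binding subunit of hemidesmosomes, stayed between 0.173 and 0.632 CPM. All 7 beta subunits had a negative fold between hairpin 3 and hairpin 1, of which 2 were called. Over all 20144 genes tested 9929 had a positive fold and 9.48% were called.

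ITGA2, the collagen-binding alpha 2 subunit, went the other way and was higher in all 4 knockdown libraries. For 786-O the control had 9.61 CPM, hairpin 1 19.8 and hairpin 3 34.4. The A-498 values were 55.5, 93.1 and 133 CPM. These are 206 and 357% of the control in 786-O and 168 and 240% in A-498, so in each line both hairpin libraries were above the 1 control library. Of all genes tested, 12.8% were higher in all 4 knockdown libraries. It rose by 1.54 with hairpin 3 (SE 0.16, edgeR adjusted p = 0.0121), a call kept without any 1 of the 6 libraries. With hairpin 1 its fold was 0.88 (SE 0.16, adjusted p = 0.132). Hairpin 3 exceeded hairpin 1 by 0.66 (SE 0.16, adjusted p = 0.0471), but this call was lost without any 1 library except the A-498 hairpin 3 library (adjusted p up to 0.163). The other collagen receptors did not pass the test. ITGA1 had folds of -0.32 and -0.25 with hairpin 1 and hairpin 3 (adjusted p = 0.537 and 0.348), and ITGA10 and ITGA11 stayed under 2 CPM.

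ITGA6, a laminin-binding alpha subunit of epithelial cells, differed most clearly between the hairpins. The 786-O control had 50.6 CPM, hairpin 1 20.3 and hairpin 3 75.5. Those of A-498 had 63.0, 24.7 and 80.7 CPM, so hairpin 1 was lowest and hairpin 3 highest in both lines. Hairpin 1 left 40.2 and 39.2% of the control, and hairpin 3 gave 149 and 128% of it. With hairpin 1 it fell (-1.33, SE 0.12, edgeR adjusted p = 0.0215), and with hairpin 3 its fold was 0.47 (SE 0.12, adjusted p = 0.0692; called by DESeq2). The difference between the hairpins was 1.80 (SE 0.13, adjusted p = 0.00481) and was called without any 1 of the 6 libraries. The hairpin 1 call was lost without the 786-O control (adjusted p = 0.0551), the 786-O hairpin 1 library (0.132) or the A-498 control (0.112). The laminin receptor subunits ITGA3 and ITGA7 did not pass with either hairpin (ITGA3 at 744 to 957 CPM in 786-O and 1172 to 1207 CPM in A-498, and ITGA7 at 0.933 to 3.79 CPM). ITGA5, the alpha subunit of the fibronectin receptor, was at 153 to 280 CPM, with folds of 0.34 and -0.24 for hairpin 1 and hairpin 3 (adjusted p = 0.521 and 0.400).

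ITGAX and ITGA4, better known from leukocytes, were present mainly in A-498 and fell with hairpin 3. ITGAX, known as CD11c, a complement receptor subunit of myeloid cells, was at 0.822, 0.945 and 0.120 CPM in 786-O and 22, 29.8 and 5.58 CPM in A-498. Hairpin 3 left 14.6 and 25.3% of the controls, a log2 fold change of -2.17 (SE 0.23, edgeR adjusted p = 0.0121). Against hairpin 1 the fold was -2.52 (SE 0.23, adjusted p = 0.00760), and both calls were kept without any 1 of the 6 libraries. ITGA4, which binds fibronectin and VCAM1, was at 66.0, 80.8 and 26.9 CPM in A-498. In 786-O it had 33, 12 and 4 reads, so that its values there rest on few counts. With hairpin 3 it fell by 1.59 (SE 0.35, adjusted p = 0.0466) against the control and by 1.5 against hairpin 1 (SE 0.34, adjusted p = 0.0430). The first call was lost (adjusted p = 0.119) when the hairpin 3 library of A-498 was left out. Its fold was then -2.40, and without the A-498 control it was -2.996. The second was lost without the A-498 hairpin 3 library (fold -2.41, adjusted p = 0.122), the A-498 hairpin 1 library (-0.40, 0.789) or the 786-O hairpin 1 library (-1.67, 0.0596). PTPRC, the common leukocyte antigen, was near 0 (0.0128 to 0.0903 CPM) in the 6 libraries. ITGA9 was under 0.5 CPM throughout.

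Among the adaptors, TNS1, a tensin that links beta tails to actin, had the largest fall. Its level was 40.5, 44.7 and 12.6 CPM in 786-O and 46.1, 59.1 and 8.56 CPM in A-498. Hairpin 3 left 31.2 and 18.6% of the controls, and both hairpin 1 libraries were above theirs. The fold with hairpin 3 was -2.03 against the control (SE 0.24, edgeR adjusted p = 0.0130) and -2.29 against hairpin 1 (SE 0.24, adjusted p = 0.00870). Both were called without any 1 of the 6 libraries. TNS3, the more abundant tensin, had folds of 0.01 and -0.03 with hairpin 1 and hairpin 3.

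TLN2, the less abundant talin, was lower in all 4 knockdown libraries, with 72.4, 57.5 and 50.9 CPM in 786-O and 16.4, 12.9 and 11.1 CPM in A-498. It fell by 0.53 with hairpin 3 (SE 0.12, edgeR adjusted p = 0.0478) and its fold with hairpin 1 was -0.34 (SE 0.12, adjusted p = 0.393). The hairpin 3 call was kept without the A-498 hairpin 1 library and lost without any 1 of the other 5 (adjusted p up to 0.368). TLN1, the major talin, had folds of 0.18 and -0.10, and the kindlins FERMT1 and FERMT2 had 0.56 and -0.08 with hairpin 1 and -0.03 and 0.06 with hairpin 3, with 0 of these 3 called.

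The actin-linking and signalling genes did not pass with either hairpin. Zyxin (ZYX), an adaptor of mature adhesions, was at 211, 332 and 329 CPM in 786-O and 227, 363 and 214 CPM in A-498. Both hairpin 1 libraries were thus at 158 and 160% of their controls, with a fold of 0.67 (SE 0.20, edgeR adjusted p = 0.316). Vinculin (VCL) was at 528, 805 and 522 CPM and 441, 558 and 409 CPM, with a hairpin 1 fold of 0.47 (SE 0.13, adjusted p = 0.281). Hairpin 3 differed from hairpin 1 by -0.54 for VCL (SE 0.13, adjusted p = 0.0503), just outside the threshold. LIMS1 had 0.38 and 0.41 with hairpin 1 and hairpin 3, and PARVA 0.08 and -0.00. ILK was at 0.562 to 1.85 CPM, but 86.4% of its exon bases lie on those of genes on the opposite strand in the annotation used here. The library kit keeps strand, but the sources used here do not say whether the counting used it, so its level is uncertain. The same holds for 12.4% of the exon bases of PXN and 11.1% of VCL. PTK2, PXN and BCAR1 had folds between -0.28 and 0.06 with both hairpins.

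**Figure D2:**
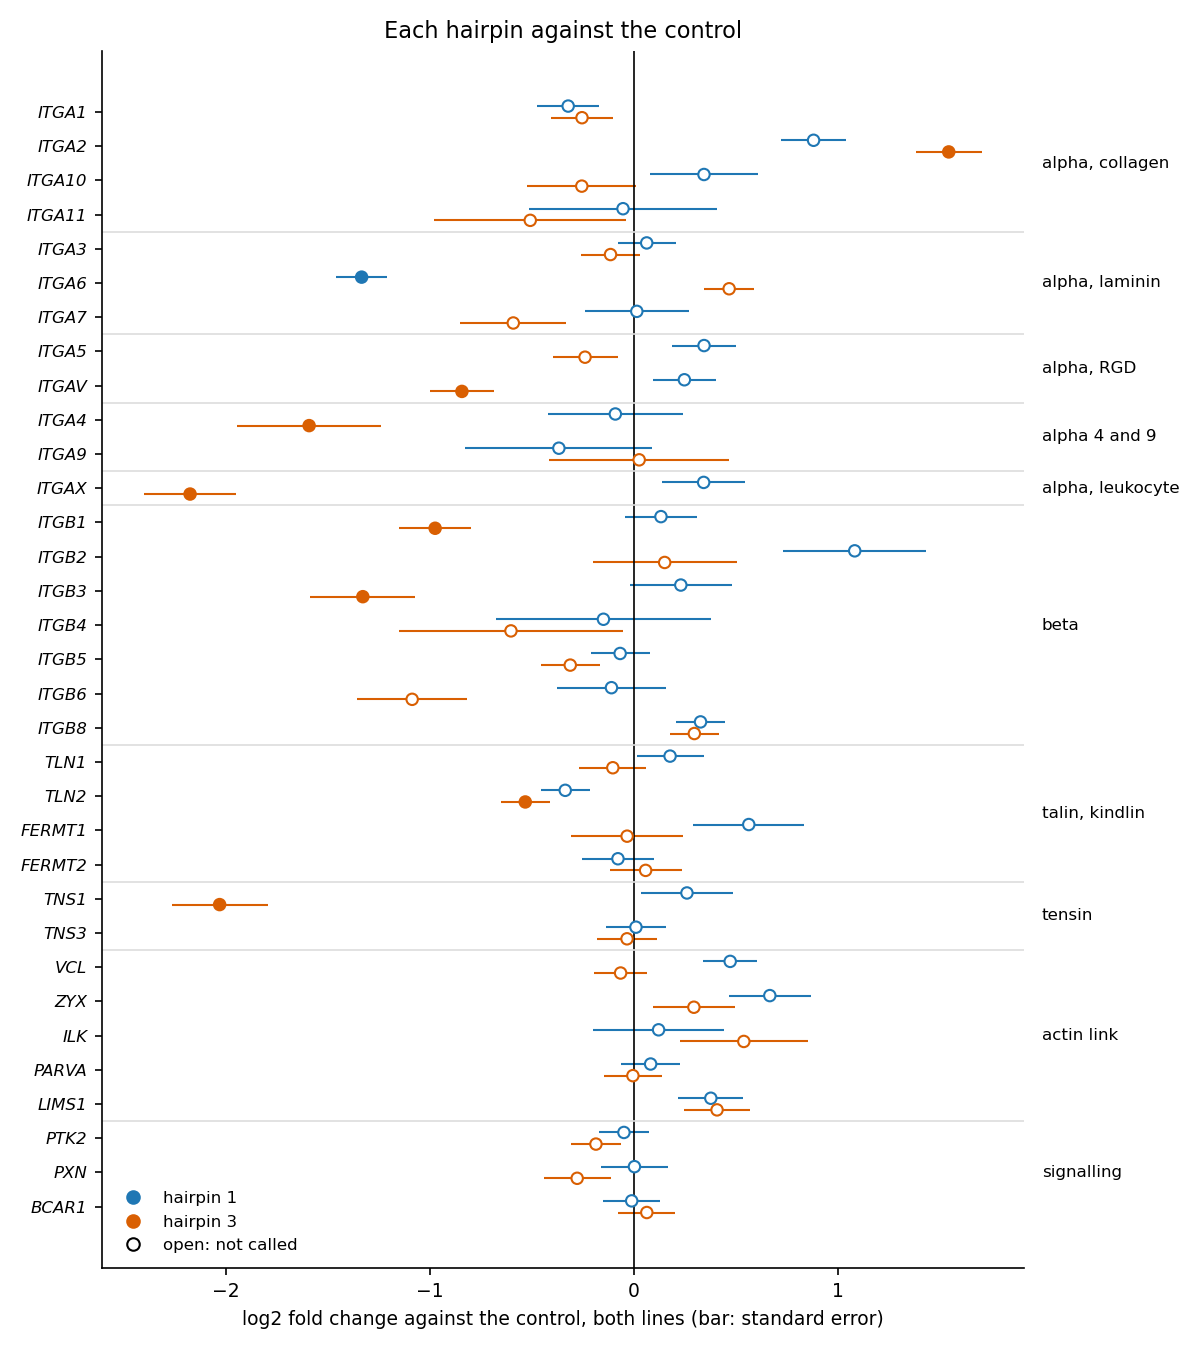
Log2 fold change of each hairpin against the control for the 33 members tested, by role, over both lines; bars are standard errors, filled points passed an adjusted p under 0.05. ITGA2 is the filled point on the right, and 7 filled hairpin 3 points and ITGA6 with hairpin 1 are on the left.

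Between the hairpins, 8 of the 33 genes (24.2%) differed, against 9.48% of all genes tested. Higher with hairpin 3 were ITGA6 and ITGA2 (background 4.09%), and lower were ITGAV, ITGB1, ITGB3, ITGA4, ITGAX and TNS1 (background 5.4%). The median difference was -0.28, against -0.01 over all genes tested. Without a test, 14 of the 33 had their lowest level with hairpin 3 in both lines, compared with 23.4% of all genes tested, and 2 had their highest, compared with 22.7%.

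When both hairpins were set against the control together, the question the series poses, 0 of the 33 genes were called by edgeR (background 0%), with 3 at an unadjusted p under 0.05 (ITGA2, TLN2 and LIMS1). DESeq2 called 1, ITGA2 (92 of all 20144 genes tested), and limma-voom 0 (1 of all genes tested). ITGA2 had a pooled fold of 1.25 (SE 0.29, edgeR adjusted p = 0.893, DESeq2 adjusted p = 0.0276). In this edgeR model the difference between the hairpins counts as spread. An edgeR model that also fitted that difference gave ITGA2 a fold of 1.21 (SE 0.14, adjusted p = 0.0515), just outside the threshold. It called 26 of all genes tested. In the authors' deposited table, which sets control over knockdown, ITGA2 has a log2 fold change of -0.94 and an adjusted p = 0.0347. It is the 1 member under 0.05 there, and 3 members have no adjusted p-value. Levels were higher in all 4 knockdown libraries for 4 of the 33 (ITGA2, ITGB8, ILK and LIMS1; background 12.8%) and lower in all 4 for 2 (ITGA1 and TLN2; background 14%). ITGB8, which like ITGB6 activates TGF-beta, was at 119, 159 and 147 CPM in 786-O and 54.5, 63.8 and 66.3 CPM in A-498 (pooled fold 0.31, SE 0.14, adjusted p = 0.939). LIMS1 was at 133, 180 and 212 CPM and 117, 146 and 128 CPM (0.39, SE 0.16, adjusted p = 0.939).

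The knockdown effect in A-498 minus that in 786-O was called for 0 of the 33 genes by edgeR, DESeq2 and limma-voom (background 0%), with 0 at an unadjusted p under 0.05. The differences ran from -4.21 (ITGA11, with at most 2 reads in a 786-O library) to 1.70 (ITGA4), with standard errors of 0.35 to 1.98. The 2 hairpins of a line served as its replicates here, so a missed threshold does not show that the lines responded alike.

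The lines were then compared over all constructs. Over all 6 libraries, 15 of the 33 genes (45.5%) differed between A-498 and 786-O, against 47.2% of all genes tested. In A-498 10 were higher (background 25.7%) and 5 lower (background 21.4%). A model with the hairpin as a replicate block takes the difference between the hairpins out of the spread. It called 23, and 61.9% of all genes tested. The 23 held all 15, and ITGB1 and ITGAV were among those added. In 16 of the 33 all 3 A-498 libraries lay on 1 side of all 3 786-O libraries, compared with 59.1% of all genes tested. The share of members that differed was thus close to that of genes in general. The summed fibroblast, endothelial and HEK293-associated markers did not overlap between the lines and were higher in A-498 (endothelial 1.20 to 1.48 CPM in 786-O and 2.55 to 4.37 CPM in A-498). The leukocyte sums overlapped (1.61 to 4.15 CPM in 786-O and 3.55 to 5.73 CPM in A-498, there mostly ITGAM, at 2.35 to 4.93 CPM). The fibroblast sum in A-498 was mostly COL1A1, with COL1A2, COL3A1, DCN and LUM near 0 there. LUM (3.90 to 4.20 CPM in 786-O and at most 0.0204 CPM in A-498) and PDGFRB (1.25 to 2.29 and 0.474 to 0.930 CPM) went the other way. Of 4 fibroblast markers tested, 1 had a positive fold. The largest endothelial marker in A-498 was TEK (1.47 to 2.15 CPM), while TIE1 was higher in 786-O (0.160 to 0.417 CPM, against 0.0102 to 0.0624 CPM). The part of these markers in the results was not tested.

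Of the 4 collagen receptor subunits 3 were higher in A-498, and ITGA10 did not pass the test (0.41, SE 0.31, edgeR adjusted p = 0.317). ITGA1 was at 7.34 to 7.75 CPM in 786-O and 72.7 to 107 CPM in A-498 (log2 difference 3.52, SE 0.16, edgeR adjusted p = 4.43e-05). ITGA2 differed by 2.22 (SE 0.27, adjusted p = 0.00105). ITGA11 had 3 reads over the 3 786-O libraries and 414 over those of A-498, a ratio of 116 (exact 95% interval 39.3 to 562, counting error only). It passed the expression filter only through A-498, so its place among the members higher there was partly set by the filter. ITGA4 differed most in the fit (8.24, SE 0.69, adjusted p = 2.38e-04), with 49 reads against 15686. ITGAX differed by 4.94 (SE 0.88, adjusted p = 0.00465) and its partner ITGB2 by 1.81 (SE 0.43, adjusted p = 0.0134). TNS3 was at 115 to 136 CPM in 786-O and 419 to 487 CPM in A-498 (1.85, SE 0.15, adjusted p = 1.88e-04).

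Higher in 786-O was PARVA, the parvin of the ILK complex, at 117 to 141 CPM against 18.1 to 21.0 CPM in A-498 (-2.74, SE 0.15, edgeR adjusted p = 6.12e-05). TLN2 differed by -2.16 (SE 0.15, adjusted p = 1.03e-04). ITGB8 (-1.20, SE 0.13, adjusted p = 6.08e-04) and ITGB5 (-0.86, SE 0.16, adjusted p = 0.00533) were also lower in A-498. ITGB3 was higher there (1.67, SE 0.54, adjusted p = 0.0419), as were ITGA7 (1.29, SE 0.31, adjusted p = 0.0146) and ITGA3 (0.48, SE 0.14, adjusted p = 0.0326). The ITGB3 call was kept without the 786-O hairpin 1 or the A-498 hairpin 3 library and lost without any 1 of the other 4 (adjusted p up to 0.163) or with limma-voom (0.0579). When 1 library was left out, that of ITGA3 was kept only without the 786-O hairpin 1 library (adjusted p up to 0.168), and it was lost with no filter on low counts (0.0544). ITGA7 lost its call without either control (0.103 and 0.111) and ITGB2 without the 786-O hairpin 3 library (0.0528). Leaving out the hairpin 1 library of A-498, the difference was 1.19 for ITGB2 and 1.04 for ITGB3. The ILK call (-1.15, SE 0.31, adjusted p = 0.0223) was, of the fits without 1 library, kept only without the 786-O hairpin 1 library. With the hairpin block edgeR kept the calls of all of these genes. The adjusted p was 7.68e-04 for ITGB3, 0.00967 for ITGA3, 0.00182 for ITGA7, 0.00247 for ITGB2 and 0.00816 for ILK.

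**Figure D3:**
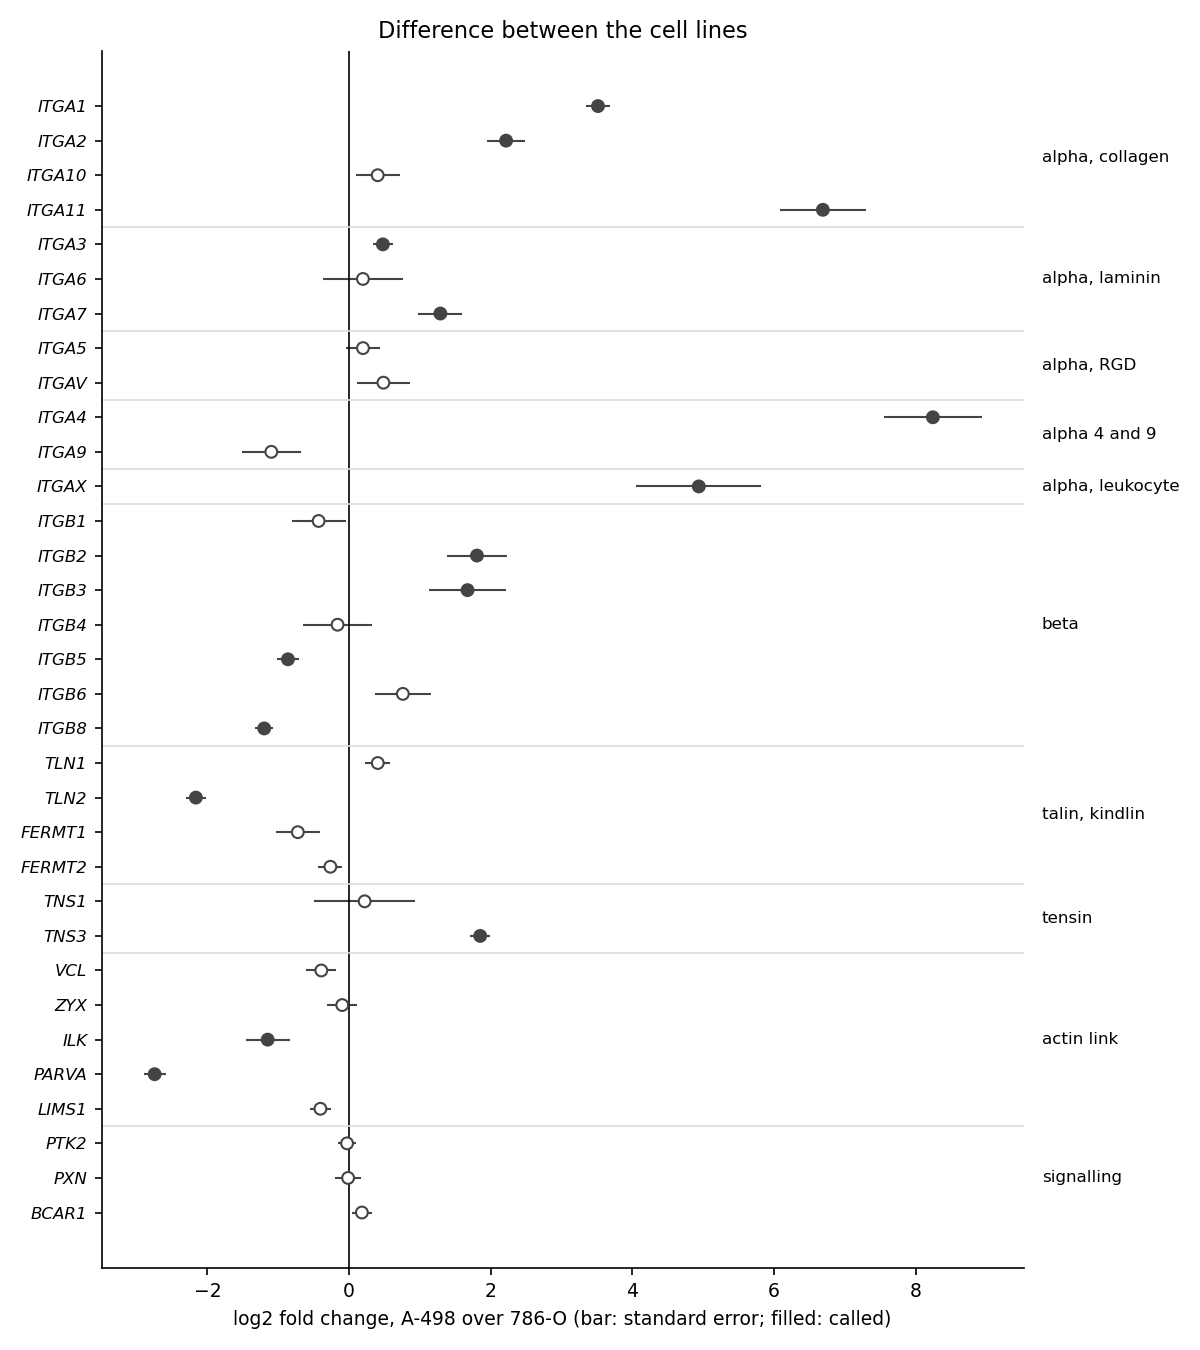
Log2 difference between A-498 and 786-O for the 33 members tested, by role, over all 6 libraries; bars are standard errors and filled points passed an adjusted p under 0.05. ITGA4, ITGA11, ITGAX and ITGA1 lie farthest to the right and PARVA and TLN2 farthest to the left.

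Per kilobase of exon, ITGB1 had the highest median of the 35 genes in both lines. This scale, CPM divided by the length of all annotated exons, allows genes to be compared, although the sources used here do not name the annotation the authors counted on, so the order is approximate. For ITGB1 the 786-O libraries gave 169 to 325 CPM per kilobase and those of A-498 97.2 to 238. The beta subunits of 786-O then followed as ITGB5 (66.7 to 76.3), ITGB3 (13.3 to 30.9), ITGB8 (7.82 to 10.5), ITGB6 (1.70 to 5.12), ITGB2 (0.221 to 0.308) and ITGB4 (0.0256 to 0.0935), with no overlap between neighbours. In A-498 ITGB3 (25.1 to 97.9) came second by its median, and its range overlapped those of ITGB1 and ITGB5 (31.1 to 42.9). ITGB6 (3.72 to 7.24) and ITGB8 (3.60 to 4.38) overlapped there.

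Of the alpha subunits, ITGA3 led in both lines by its median per kilobase (75.9 to 97.7 in 786-O and 120 to 123 in A-498), followed by ITGAV (39.5 to 79.4 and 46.6 to 106) and ITGA5 (22.4 to 27.6 and 20.3 to 37.0). ITGA3 and ITGAV overlapped in 786-O but not in A-498, and ITGAV and ITGA5 overlapped in neither line. Next in 786-O were ITGA6 (3.11 to 11.6) and ITGA2 (1.22 to 4.34), which overlapped. Next in A-498 were ITGA2 (7.02 to 16.9), ITGA6 (3.78 to 12.3), ITGA4 (3.41 to 10.2) and ITGA1 (3.92 to 5.78), each overlapping its neighbour in the order. Of the adaptors, ZYX (60.6 to 95.5 and 61.5 to 104), TLN1 (49.9 to 63.3 and 61.6 to 82.5) and VCL (52.3 to 80.5 and 41.0 to 55.8) were the highest in each line.

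**Figure D4:**
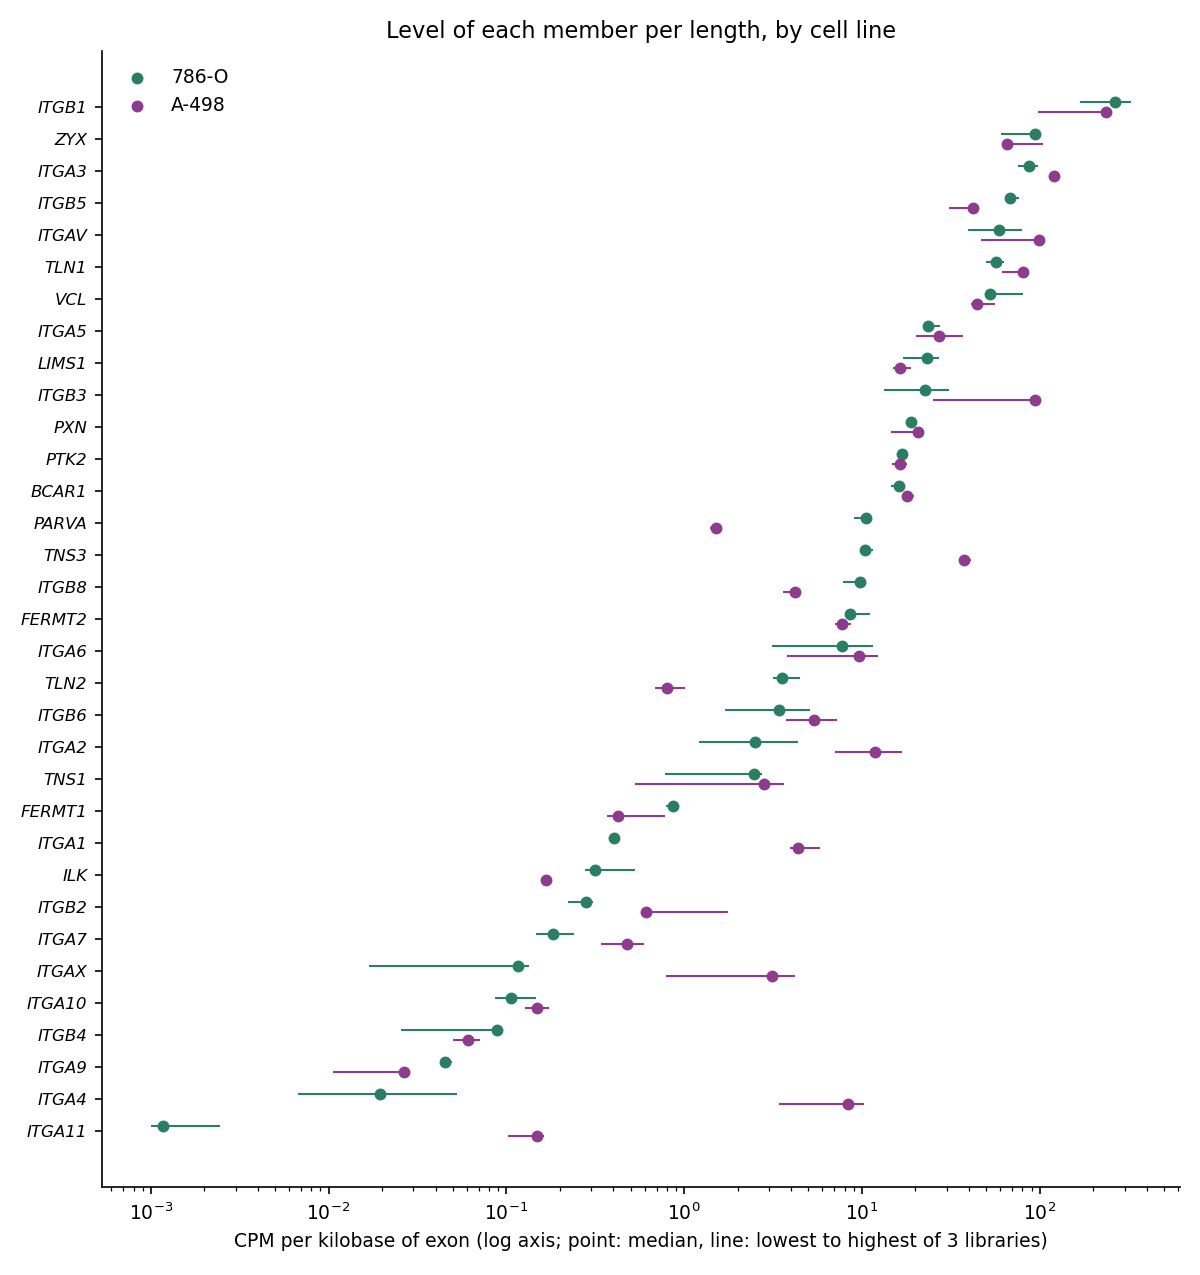
CPM per kilobase of exon on a log axis for the 33 members tested, ordered by the 786-O median; points are medians and lines run from the lowest to the highest of the 3 libraries of a line (a lowest value of 0, in ITGA11 of 786-O, is drawn at the left edge of the line). ITGB1 is at the top in both lines, and ITGA4, ITGA11, ITGAX and ITGA1 are shifted most to the right in A-498.

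Other genes of the pathway were counted from lists of integrin ligands, further adhesion proteins, hemidesmosome genes and the remaining integrin subunits. With hairpin 3, 2 of 61 further adhesion genes tested were called by edgeR, a smaller share than the 6.71% of all genes tested, and 15 had an unadjusted p under 0.05. The DESeq2 count was 9 and that of limma-voom 2, where DESeq2 called 2623 and limma-voom 1635 of all 20144 genes tested. CAV1, the caveolar coat protein, fell (-1.30, SE 0.19, edgeR adjusted p = 0.0175). The controls had 794 (786-O) and 595 CPM (A-498), and the hairpin 3 libraries 369 and 215 CPM. TES, a LIM-domain partner of zyxin, rose (0.74, SE 0.14, adjusted p = 0.0310). Of 7 hemidesmosome genes tested edgeR called 1, DESeq2 4 and limma-voom 3, with 5 at an unadjusted p under 0.05. The edgeR call was COL17A1, a transmembrane collagen, which rose (1.25, SE 0.27, adjusted p = 0.0458). Its controls had 1.43 and 3.01 CPM and its hairpin 3 libraries 4.61 and 5.52 CPM. Of 27 ligand genes 0 were called by edgeR with hairpin 3 (8 at an unadjusted p under 0.05), 4 by DESeq2 and 2 by limma-voom. Of all 20144 genes tested, 5205 were at an unadjusted p under 0.05 with hairpin 3. Of 5 other integrin subunits 0 were called by edgeR, DESeq2 or limma-voom, with 0 at an unadjusted p under 0.05. With hairpin 1 edgeR called 0 genes of the 4 lists. At an unadjusted p under 0.05 there were 5 ligand, 9 adhesion, 1 hemidesmosome and 0 integrin genes, DESeq2 called 3 ligand genes and 1 adhesion gene, and limma-voom called 0. Over all genes tested 2106 were at an unadjusted p under 0.05 with hairpin 1, and DESeq2 called 474 and limma-voom 37. For pooled knockdown edgeR, DESeq2 and limma-voom each called 0, with 3 ligand, 4 adhesion, 1 hemidesmosome and 0 integrin genes at an unadjusted p under 0.05, and 1013 of all genes tested.

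Between the hairpins, 3 of the 27 ligand genes and 7 of the 61 adhesion genes differed in edgeR, against 9.48% of all genes tested. So did 1 of the 7 hemidesmosome genes and 0 of the 5 other integrin subunits. In that order DESeq2 called 9, 11, 2 and 0, and limma-voom 4, 7, 2 and 0. Of all 20144 genes tested DESeq2 called 2990 here and limma-voom 2312. The hemidesmosome gene was COL17A1, higher with hairpin 3 (1.69, SE 0.28, edgeR adjusted p = 0.0202). THBS1, which encodes thrombospondin 1 (-0.80, SE 0.18, edgeR adjusted p = 0.0408), and COL4A1, a basement membrane collagen (-0.68, SE 0.13, adjusted p = 0.0275), were lower with hairpin 3. LAMA4 was higher (1.05, SE 0.24, adjusted p = 0.0440), with 22.9 to 51.3 CPM in A-498 and at most 0.101 CPM in 786-O. Of the 61 adhesion genes 5 were lower, with CAV1 (-1.12), LPXN, a paxillin relative (-0.81), PDLIM5 (-0.79) and RAP1B, a GTPase that activates integrins (-0.75), changing most, and 2 were higher. Between the lines 17 of the 27 ligand genes differed, 10 of them higher in A-498, where 47.2% of all genes tested differed. The laminin chains LAMA4 (8.45, SE 0.47) and LAMA1 (6.88, SE 0.40) were higher there. LAMA4 was at 0.0766 to 0.101 CPM in 786-O. It passed the expression filter only through A-498, so its fold rests on few reads and its direction was partly set by the filter. Of the 61 adhesion genes 25 differed, 9 higher in A-498 and 16 lower, led by LAYN, a hyaluronan receptor (-6.81). Of the 7 hemidesmosome genes 3 were lower in A-498, and of the 5 other integrin subunits 3 were higher (ITGAM 3.37, ITGA2B 2.68 and ITGAD 1.29). ITGA2B was at 0.0383 to 0.126 CPM in 786-O. It too passed the expression filter only through A-498, so its fold rests on few reads and its direction was partly set by the filter.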

How the data were processed

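Whole-number read counts per gene symbol were deposited by the authors without normalization. The submitters' processing notes name STAR and DESeq2 as tools and hg19 with hs37d5 as builds. The sources used here do not give the counting tool, annotation or strand setting. The deposited mean signal was not used. Per the file headers the authors also gave a log2 fold change, a Wald score and p-values from DESeq2, of which the members' values are quoted. No number column was left unlisted (0).

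The members, roles and lists were chosen with earlier results of these data known, and all 35 members are described. Of each other list at most 4 genes per comparison are named, those called with the largest fold; 1 such gene is not reported here. Tests on the counts used edgeR 4.0.16, run in R 4.3.3 (TMM scaling, expression filter over knockdown status, quasi-likelihood F tests) over 20144 genes, with Benjamini-Hochberg adjustment. Standard errors come from the F statistic. Pooled knockdown and line came from a model of line and knockdown status. Each hairpin came from line and construct, with lines as replicates, and the difference between lines from 4 means. Ratios used a prior count of 2. DESeq2 1.42.0, limma 3.58.1, other scaling, no filter, a hairpin block and leaving out each library were alternatives. The scripts were tested on simulated data. Replicate numbers are hairpin numbers, so equal numbers share a reagent. The difference between hairpins correlated between lines over 11027 genes (Pearson r 0.577). Exon lengths and overlaps are from GENCODE v29 (GRCh38), not the files' build. At this depth intervals and ratios of few reads cover counting error only.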

Additional observations from a re-analysis of the deposited data

How the results depend on the processing

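Of 38 results on single members, repeated 401 times in all, 355 repeats kept direction and side of the threshold, 45 lost the call, 1 gained it (ITGA2 with pooled knockdown, DESeq2) and 0 changed direction. For pooled knockdown DESeq2 called 1 member, and every other alternative called 0, the hairpin block included. With hairpin 1 the main count of 1 became 3 with no filter on low counts (ITGA6, ZYX and ITGA2), 2 with DESeq2, and 0 to 3 when 1 library was left out. It was 0 without the 786-O control, the A-498 control or the 786-O hairpin 1 library and 3 without either hairpin 3 library. With hairpin 3 the count of 8 was 10 with DESeq2 and 9 with no filter, and when 1 library was left out it ran from 5 (without either control) to 11 (without the A-498 hairpin 3 library). Between the hairpins the count of 8 was 11 with DESeq2 and 12 with no filter, and ran from 3 (without the 786-O hairpin 1 library) to 10 when 1 library was left out. Between the lines 15 members became 23 with the hairpin block, and 11 to 15 without 1 library. A construct left with 1 library was assumed to vary like the others, and the cause of these shifts was not tested. Over all genes pooled knockdown gave 0 calls, and 92 with DESeq2. Hairpin 1 gave 30 calls, 474 with DESeq2 and 478 with no filter. Hairpin 3 gave 1351, 2623 with DESeq2, 2654 with no filter and 121 without the A-498 control. Hairpin 3 against hairpin 1 gave 1910 calls over all genes, 2990 with DESeq2 and 3117 with no filter. The difference of effects between lines could not be fitted without a control and gave 0 otherwise, also with the hairpin block. Low counts limit ITGA4, ITGA11 and ITGAX in 786-O and ITGA9, ITGB4 and ILK in both lines.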
